A study of Rattus norvegicus with 2 samples.

Results

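Retained-intron transcripts are assembled RNA models in which sequence that the reference transcript of the gene removes as an intron is kept inside an exon. The members were chosen by the class code that each transcript of the deposited annotation carries from its comparison with a reference annotation. Code m stands for a retained-intron model in which all introns of the reference are matched or retained. Code n stands for one in which not all of them are matched or covered. Of 43391 transcripts, 416 (0.959%) carried these codes, 97 with code m and 319 with code n. All 416 carried the name of a known gene.

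The study sequenced femur RNA of female wild-type Wistar rats after bilateral removal of the ovaries (OVX), a model of bone loss after oestrogen withdrawal, or after a sham operation (SHAM). Among the samples described here, 1 is labelled OVX and 1 SHAM. Both are marked 16 week, and the labels do not say what this counts. The feeding period between operation and sampling in the study's methods is shorter. The labels also carry the word old for the OVX sample and young for the SHAM sample. The annotation holds positions of transcripts and exons and no counts, coverage or expression values, so the sequencing depth behind a model is unknown and no model could be compared between OVX and SHAM. It records whether a transcript was found in 1 or in both of the assemblies from which it was merged. The assemblies are called the first and the second here, and which rats each of them came from is unknown.

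Most introns are cut from a transcript while it is being made, and an intron that stays in can hold the RNA in the nucleus or bring in a stop codon that marks it for decay. Regulated retention is known from granulocyte and erythroid development, both of which take place in bone marrow, and from splicing factors that control their own RNA. Short introns with weak splice sites are retained more often than long ones in mammals. Reads from precursor RNA that is not yet spliced can give the same model.

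The label was first checked against the introns of the reference. The reference transcripts themselves were not used here, but a model with a full reference match (code =) has the same introns as its reference. For 79 members the annotation held such a full match to the member's own reference. All 28 class n members among them kept at least 1 reference intron inside an exon. Of the 51 class m members among them, 15 kept a reference intron inside an exon and 36 did not.

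The 36 class m members without a kept intron had more introns than their reference and not fewer. Each of the 36 contained every intron of its reference and at least 1 more. The outer ends of the reference were known only from its full match, which need not share them. In 27 of the 36 an added intron crossed the end of the full match, and in 9 an added intron lay inside one of its exons. Genes of this kind included Cdk6, a cell cycle kinase, Smad4, the shared mediator of TGF-beta and BMP signalling, Ctnnb1, which encodes beta-catenin, and Tlr9 and Pycard of innate immunity. These 5 genes were chosen after their values were seen. The Cdk6 model had 7 introns against 6 in its reference, the Smad4 model 11 against 10, and both Ctnnb1 models 15 against 14. A wider check added the introns of models contained in the member's reference (code c), which show its introns only in part. At least 1 intron of the reference was then known for 282 members, and 98 of 220 class n and 18 of 62 class m members among them kept such an intron inside an exon. The others include the 36 class m members whose whole reference chain was known and which kept none of its introns. For the remaining members this check is not decisive, since a kept intron may be among those not seen. Where the whole chain was known, the label held for all 28 class n members and for 15 of 51 class m members, so the members are called by their class codes below.

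**Figure D1:**
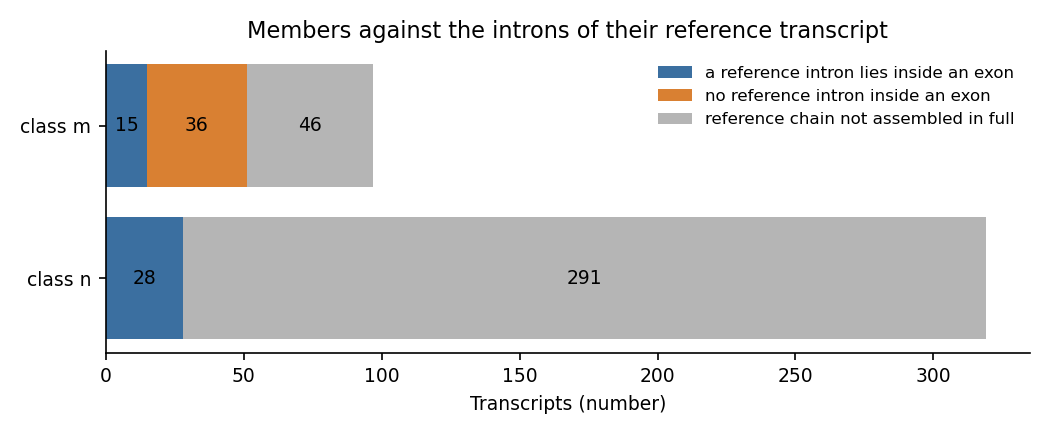
Number of class m and class n transcripts (horizontal axis) whose reference was also assembled in full and whose exons did (blue) or did not (orange) contain a reference intron; grey marks members whose reference had no full match. All 28 class n members and 15 of 51 class m members that could be checked contained a reference intron.

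The members belonged to 361 of the 12568 gene names of the annotation (2.87%) and to 360 of 16678 loci. Among gene names with a transcript of at least 2 exons the share was 2.98%, and among gene names with at least 2 transcripts 3.81%. A total of 322 names had 1 member, 29 had 2 and 10 had more. Of the 361 names, 128 were locus tags with no gene symbol. Without locus tags, 233 of 8099 names (2.88%) had a member. None of the members lay on a locus of the list of new genes, which follows from the codes, since both need a reference transcript.

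The members lay on all 21 sequences, with 188 on the plus and 228 on the minus strand. The share of a chromosome's transcripts that were members ran from 0.471% on chromosome 18 to 1.37% on chromosome X.

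The members were built like class j models, the models of known genes that use at least 1 new splice junction, but were longer. The median was 5 exons in both kinds. The median exon sequence was 1270 bp in the members (quartiles 770 and 2164 bp) and 744 bp in class j (quartiles 420 and 1460 bp). The longest exon of a model had a median of 509 bp in the members and 254 bp in class j. Only 21 members consisted of 1 exon.

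Of the members, 44 (10.6%) were found in both assemblies, 175 in the first alone and 197 in the second alone. Among class j models 569 of 9873 (5.76%) were found in both. The difference passed Fisher's exact test (two-sided p = 0.000184). In class m 23 of 97 models (23.7%) were found in both. In class n 21 of 319 (6.58%) were, and this share did not pass the test against class j (two-sided Fisher's exact p = 0.541). Transcripts of a locus are not independent of each other, and the test describes the annotation and not the rats.

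The comparison depended on what the members were set against and on which members counted. All transcripts outside the classes had a share of 11.3%, above that of the members, without passing the test (two-sided Fisher's exact p = 0.697). They include the full reference matches, of which 50.2% were found in both assemblies. Among the 162 members with a located retained intron, described next, 6 (3.70%) were found in both, below class j and again without passing the test (two-sided Fisher's exact p = 0.391). Among class m members, 20 of the 46 whose reference had no full match were found in both, compared with 2 of 36 that added introns to a fully matched reference and 1 of 15 that kept a reference intron.

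**Figure D2:**
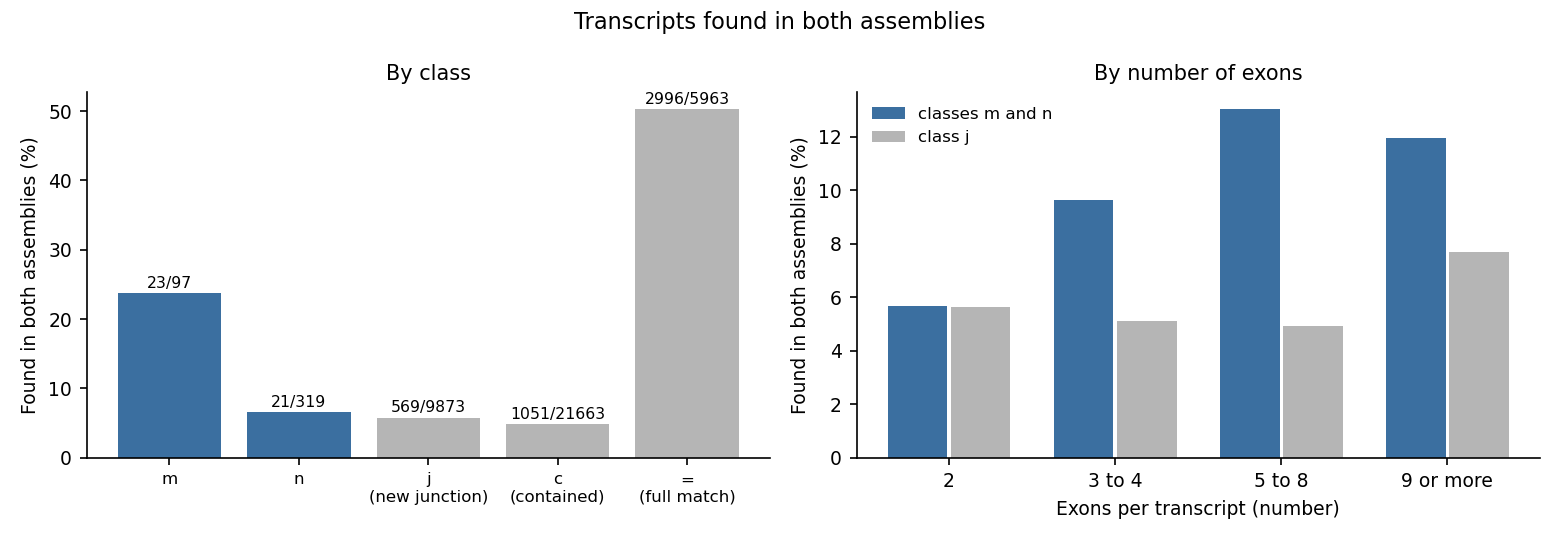
Share of transcripts found in both assemblies (vertical axes, percent) by class at left and by number of exons at right, with the number of transcripts above each bar at left. Class m stands at 23.7% and class n at 6.58%, beside 5.76% for class j; with 5 to 8 exons the members reached 13.0% and class j 4.93%.

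A retained intron was located where another transcript of the same locus spliced an intron that lay wholly inside 1 exon of the member. This gave 164 distinct introns in 162 members (38.9%), 30 of class m and 132 of class n, on 148 loci. A total of 151 members had 1 such intron and 11 had 2. For the other 254 members no such intron was found, and 36 of them lay on a locus where no other transcript had an intron at all. Of the 164 introns, 126 were spliced by a full match or by a model contained in a reference transcript (code c), so that the reference itself splices them. In 18 introns a full match also ran through the intron. For 14 of these the reference also splices the intron, whereas the other 4 were spliced by models of other classes alone. A full match need not share the outer ends of its reference. Whether the reference itself runs through these introns was therefore not settled.

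The same intron was seldom both spliced and retained in each assembly. For 82 of the 164 introns the spliced and the retained form came from the same assembly, and for 82 only from different ones. The spliced form was found in both assemblies for 63 introns and the retained form for 7. Both forms were in both assemblies for 3 introns.

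Retained introns were short. Their median length was 97 bp (quartiles 82.8 and 145 bp, range 21 to 2266 bp), and the 1827 other introns of the same loci had a median of 556 bp. In 136 of 147 loci with both kinds of intron the median retained intron was shorter than the median of the others (92.5%, exact two-sided binomial test p = 1.44e-28). Of the introns of 50 to 100 bp on these loci, 84 of 355 were retained (23.7%), and of those above 1000 bp 3 of 671 (0.447%).

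A long intron can be located only inside a long exon, so the definition itself favours short ones. When the other introns were limited to those shorter than the longest exon of a member on the locus, 836 remained with a median of 153 bp. The retained introns were then shorter in 105 of 136 loci (77.2%, exact two-sided binomial p = 1.33e-10). This limit was chosen after the data were seen. It removes the bias of the definition only in part. A retained intron must fit inside an exon together with the exon sequence beside it, and the other introns need not.

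**Figure D3:**
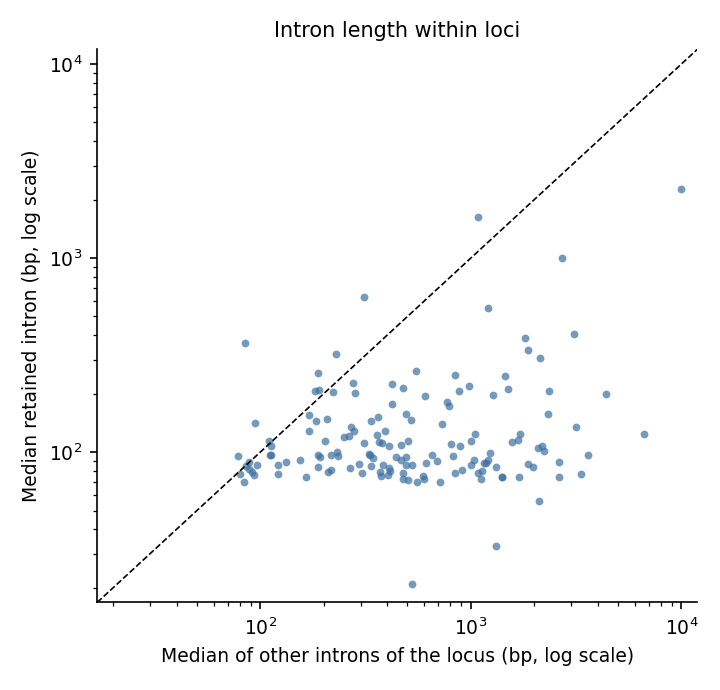
Median length of the retained introns of a locus (vertical axis, bp, log scale) against the median of its other introns (horizontal axis, bp, log scale); each point is 1 of 147 loci and the dashed line marks equal lengths. Of the points, 136 lie below the line and 11 above it.

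A retained intron of a length divisible by 3 keeps the reading frame if it holds no stop codon. Of the retained introns 54 of 164 (32.9%) had such a length, and of all other introns of loci with a member 1397 of 4170 (33.5%). The difference did not pass Fisher's exact test (two-sided p = 0.933). The introns' sequences were not analysed here, so stop codons and splice sites were not read.

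In the transcripts used to read position, the shares of first and of last introns were higher among retained introns than among the others. The position was read in the transcript with the most introns among those that splice the intron, which may be a partial model. Of the retained introns, 20.7% were the first intron of that transcript, 52.4% an inner one and 22.6% the last. The other introns of the same loci were the first in 16.7%, inner in 67.0% and the last in 14.6%. When only introns of full reference matches were counted, 28.8% of the retained and 9.63% of the other introns were the first. The position was not tested, since assembled models end where read coverage ends.

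Genes with the same retained intron in both assemblies were few. There were 7, of which 3 were locus tags. The named ones were Necap2, whose protein acts with clathrin coats in endocytosis, Arpc2, a subunit of the Arp2/3 complex that branches actin filaments, Ank1, the ankyrin that ties spectrin to the red cell membrane, and Prg3, an eosinophil granule proteoglycan. Coordinates are given 1-based as in the annotation. The submitters' processing notes name the rn4 build, which was not checked against these coordinates, and chromosome numbers were assigned to the sequences from the genes on them.

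In Necap2 (chromosome 5, minus strand) 3 of 5 transcripts were members. An 85 bp intron at 151742456 to 151742540, the third of 7 in the full match, was kept by a class n model of the first assembly and by another of the second. In both it lay in the last exon of the member. Another model of the first assembly spliced this intron and kept a 526 bp intron at 151736095 to 151736620, the last of the gene. In Arpc2 (chromosome 9, plus strand) a class m model found in both assemblies kept the first of 10 introns, 206 bp at 73397444 to 73397649, and had 9 introns itself. The full match that splices this intron was also found in both.

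In Ank1 (chromosome 16, minus strand) 2 class n models kept a 78 bp intron at 66785553 to 66785630, and 1 of them was found in both assemblies. The spliced form came from class j models, so this intron is not known to be in the reference. In Prg3 (chromosome 3, plus strand) the gap of 21 bp at 69428899 to 69428919 was spliced by class j models alone. It and an interval of 33 bp at a locus tag were the only located introns under 50 bp, and whether gaps of this size are introns was not tested.

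Members with 2 located introns kept either a single stretch with alternative ends or separate introns. Zyx encodes zyxin of focal adhesions, and its class m model kept an interval of 133 and of 136 bp that begins at the same base, so 1 stretch with 2 alternative ends. In Mybph, a myosin-binding protein of muscle, the class n model kept the first of 10 introns (87 bp) and the ninth (227 bp). In Cyp4f18, a cytochrome P450 that oxidises leukotriene B4 in neutrophils, introns of 174 and 318 bp were kept in 1 model of the second assembly, and another model kept the 174 bp intron alone.

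The longest retained introns lay in RGD1310061, now called Arglu1, in Harpb64, now Iah1, and in MGC112775. Arglu1 acts in RNA processing, and retention of an intron in its transcripts is known in mammals. Its class m model in the second assembly kept a 2266 bp intron at 78538159 to 78540424 (chromosome 16, plus strand), the second of 3. The model had 3921 bp of exon sequence, against 1997 bp in the full match, which was found in both assemblies. That full match was to another reference transcript than that of the member. Iah1 kept 1619 bp and MGC112775 1004 bp. In Iah1 a full match also ran through the intron. After Prg3, the shortest located introns in genes with a symbol measured 70 bp, in Stx4 (Stx4a in the annotation), a membrane fusion protein, Ndufs7 of respiratory complex I, and Sharpin, a part of the linear ubiquitin ligase, which was named because of the tie.

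**Figure D4:**
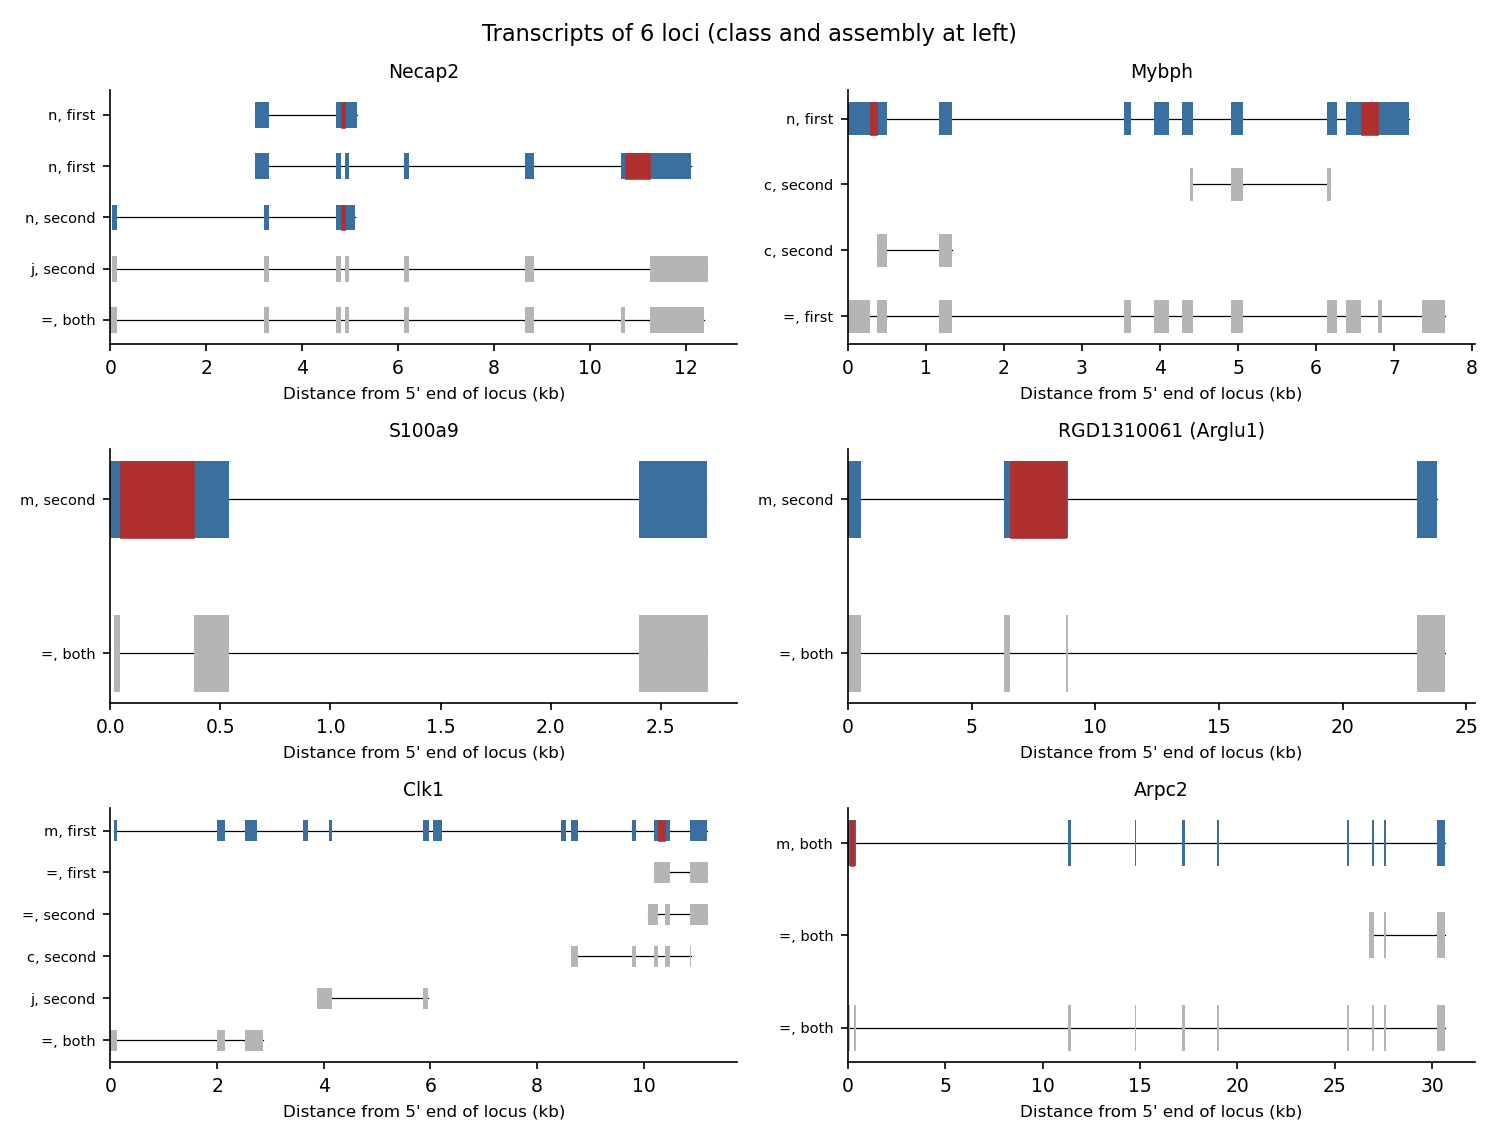
Exons of all transcripts at 6 loci against distance from the 5' end of the locus (horizontal axes, kb, to scale); blue marks exons of class m or n members, red their located retained introns and grey other transcripts, with class and assembly at left. The red block spans 2266 bp in Arglu1 and 336 bp in S100a9, and in Clk1 a full match of the first assembly runs through the same 129 bp.

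The most members of a gene name were 6, at a locus tag, and 2 more locus tags had 4. Among genes with a symbol, those with the most members did not have located introns in most cases. Mll5 (now Kmt2e), a chromatin protein with a SET domain, had 4 class n models among 7 transcripts, with 6, 17, 14 and 26 exons and 2 of them in each assembly. RGD1564946 (now Ylpm1), Tnk2, a non-receptor tyrosine kinase, Tacc3, which stabilises the mitotic spindle, and LOC290396 (now Diaph3), a formin that builds actin filaments, had 3 each. In none of these 5 genes was the retained intron located, and in Necap2, which also had 3 members, 2 introns were. In Tacc3 the members had 13, 15 and 16 exons, and the model with 15 was found in both assemblies. Within each of these genes the members overlapped in position, so they are not independent of each other.

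The gene lists were read by name. Of 291 listed genes found by name over 19 lists, 13 (4.47%) had a member, beside 2.87% of all gene names. With so few genes a list, the counts are given without a test. The number of transcripts differed between lists, with a median of 6 per gene for collagens and 4 for the spliceosome core, with older symbols included, and 2 over all gene names.

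Of the splicing genes, 3 of 22 spliceosome genes had a member. Rbm5, which regulates splice site choice, kept a 78 bp intron at 107728832 to 107728909 (chromosome 8, minus strand) in an inner exon of a class n model of the second assembly. Sf3b3, of the complex that binds the branch point, kept a 554 bp intron, number 14 of 25, in the last exon of a class n model of the second assembly. Prpf8, the core protein of the spliceosome's catalytic centre, had a class m model of 42 exons and 7248 bp in both assemblies, with no located intron. Zfp162 (now Sf1, the branch point binding protein), matched through its older symbol, had a class m model of 13 exons in both assemblies.

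Of 5 SR protein and CLK kinase genes found by name, 1 had a member, and of 3 hnRNP genes 0. With older symbols 15 and 16 were found, and the numbers with a member were the same. The member was Clk1, a kinase that phosphorylates SR proteins and is known for retained introns that are spliced on demand. Its class m model of 12 exons kept a 129 bp intron at 57391263 to 57391391 (chromosome 9, minus strand), 801 bp from the 3' end of the locus. A full match of the first assembly also ran through this intron, in an outer exon. The end of such an exon may differ from that of the reference, so whether the reference holds the retained form is unknown. Of 6 genes found from the list of described regulated retention, Clk1 and Ogt had a member. Ogt, the enzyme that adds O-GlcNAc to proteins, had a class n model of 2 exons and 415 bp at the 5' end of the gene with no located intron.

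Of the bone genes, 2 of 13 osteoblast and osteocyte genes had a member and 0 of 5 osteoclast genes. Sparc encodes osteonectin and Ibsp bone sialoprotein, both proteins of the mineralised matrix. The Sparc member, a class n model of the second assembly, had 10 exons and 2075 bp beside 10 exons and 2097 bp in the full match. The Ibsp member, a class n model of the first assembly, had 7 exons and 1814 bp beside 7 exons and 2059 bp. In both genes the full match was to another reference transcript than that of the member. In neither gene did an intron of another transcript lie inside an exon of the member, so retention in these genes rests on the class code alone. None of the 8 genes found from the study's own target and indicator list had a member.

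Of the marrow genes, S100a9 of the neutrophil list and Ank1 of the erythroid list had members, 1 of 16 and 1 of 9 genes found by name. S100a9 encodes a calcium-binding protein abundant in neutrophils. Its class m model of the second assembly kept the first of 2 introns, 336 bp at 170125442 to 170125777 (chromosome 2, minus strand), and had 850 bp of exon sequence, compared with 502 bp in the full match found in both assemblies. LOC500904 (now Ncf4), a subunit of the phagocyte oxidase found by its gene number, had a class n model of 11 exons with no located intron. None of 10 B lymphocyte genes and none of 9 skeletal muscle genes had a member. An assembled transcript under the listed name was found for 13 of 16 osteoblast and osteocyte genes, 5 of 16 osteoclast genes and 16 of 19 neutrophil genes. The same held for 9 of 20 erythroid genes, 10 of 15 B lymphocyte genes and 9 of 20 muscle genes. Genes of bone, marrow and muscle were thus all among the transcripts, and their levels are not in the files. No list of a tissue foreign to the femur was read, so these counts do not check the femur label.

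In the other lists members were few. Ndufs7 was the member gene among 49 respiratory chain genes, and its class m model kept intron 5 of 7. Tars, threonyl-tRNA synthetase, was the member gene among 11 synthetase genes and kept a 195 bp intron in the first exon of a class n model. Rara, the retinoic acid receptor alpha, was the member gene among 20 nuclear receptor genes, and Col2a1, the collagen of cartilage, among 28 collagen genes. The Col2a1 model had 53 exons, the most of any member, and neither it nor the Rara model had a located intron. None of 29 proteasome, 27 MAP kinase cascade, 25 cathepsin and matrix metalloprotease or 7 ribosomal protein genes had a member.

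**Figure D5:**
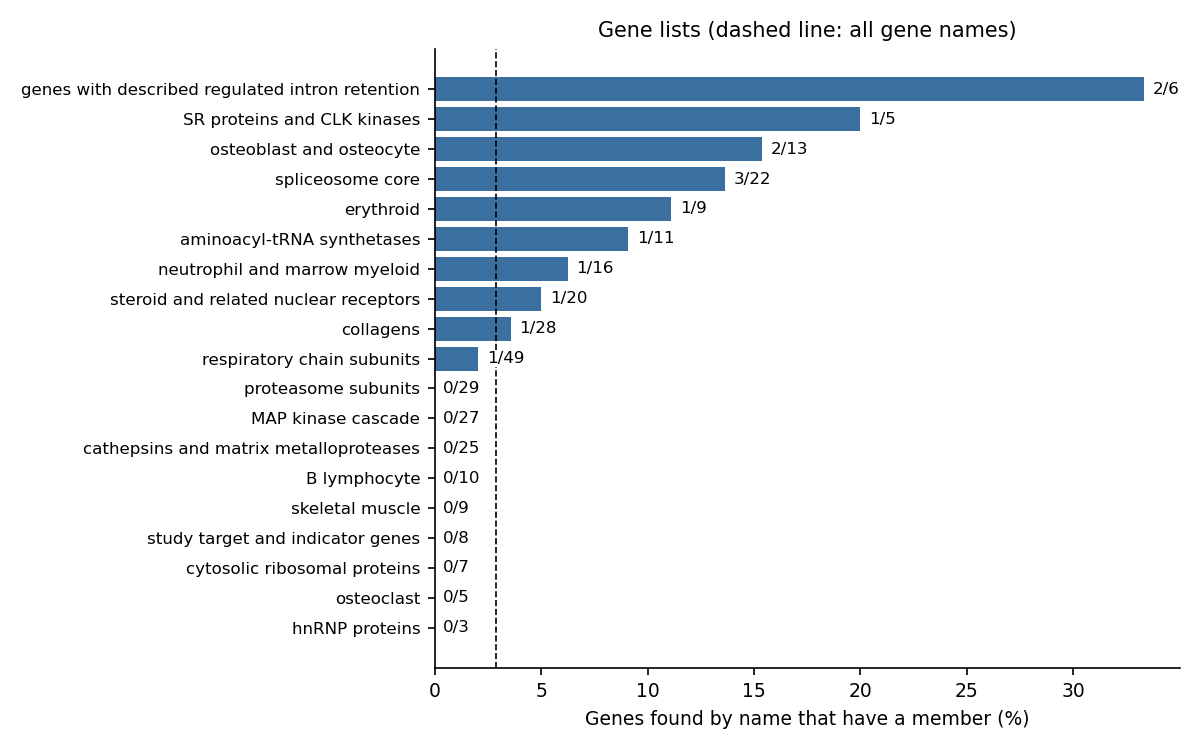
Share of the genes found by name in each list that had a class m or n member (horizontal axis, percent), with the numbers of genes beside each bar. The dashed line marks 2.87%, the share over all gene names; 9 of the 19 lists had no gene with a member.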

How the data were processed

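Femur RNA of OVX and SHAM rats was sequenced. The submitters' processing notes name FastQC, HISAT2, StringTie, featureCounts and rn4, with no versions. The authors assembled transcripts with StringTie, and the deposited attributes have the form of merged assemblies compared with a reference annotation. The deposited values are positions, not counts. Assemblies were told apart by the numbering of transcripts, which runs through each sequence and strand again for the second. Names were matched to GRCr8 RefSeq symbols without regard to case and endings; of 361 member names, 153 equalled a symbol, 67 an older symbol and 9 a gene number. Sequences were assigned to chromosomes by the symbols on them (99.1% of 5340 fell on the main chromosome). Introns were taken between consecutive exons, and retained introns were located with Python 3.11.15 and scipy 1.17.1 and tested on simulated data. Named genes are those with the same retained intron in both assemblies, the 6 genes with most members, the 4 members with most retained introns, the 3 longest and 3 shortest introns, and listed genes; locus tags were counted and not named, and 1 gene chosen by this rule is not reported here. Cdk6, Smad4, Ctnnb1, Tlr9 and Pycard were named outside this rule, after their values were seen, and Sharpin was named because of a tie. Members and lists were chosen with earlier results of these data known.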

Additional observations from a re-analysis of the deposited data

How the results depend on the processing

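No paired analysis was possible because no transcript has a value of its own in any sample, and for the same reason no replicate could be left out. Shorter retained introns were found under all alternatives tried for intron length, in 77.2% to 95.7% of loci. The definition favours short introns in each of these. The share of members found in both assemblies (10.6%) kept its direction and its side of 0.05 against class j for class m, multi-exon models, genes with a symbol, and class j models of the same loci, and against all models other than full matches. It was 6.58% for class n, which did not pass the test against class j, 10.6% below the 11.3% of all other transcripts, and 3.70% for members with a located intron, below class j. The share of introns divisible by 3 was 40.4% for introns of full matches and 33.8% with a flank of 10 bp, above the other introns in both, and the test was not passed. Located introns were found in 13.0% of members when only introns of full matches counted, in 30.3% when those of contained models counted too, and in 30.9% of class m. Listed genes with a member were 2.41% where a located intron was required, beside 1.19% of all gene names, and 0.687% where a model in both assemblies was, beside 0.342%. Some alternatives were added after seeing the data. For the share found in both assemblies, these were class j models of the same loci and the restriction to located introns. For intron length, they were the limit on other introns and introns spliced and retained in the same assembly. For intron length and the share of members with a located intron, they were contained models, introns outside the exons of full matches and introns spliced under the same gene name. For the listed genes, older symbols were added, and the restriction to located introns was planned. The cause of the changes between alternatives was not tested. Depth is unknown, so models that were absent and models too rare to assemble cannot be told apart.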
